A study of Mus musculus with 12 samples.

Results

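Long terminal repeats (LTRs) of the mouse ERVK retroviruses other than IAP were examined for CpG methylation in pluripotent stem cells, in germ cells of the embryo and in germ cell-like cells made in culture. Members were all repeat entries of the class LTR/ERVK whose element name neither began with IAP nor contained -int, the tag of internal sequence, and which had a level in each of the 12 libraries. There were 2614 such entries, out of 4652 with a level in at least 1 library and out of 133311 features of any kind measured in all 12. They carried 211 element names. Keeping only a name's leading letters and any number right after them (RLTR9E and RLTR9A3 to RLTR9, for example) gave 55 name stems, called families below. Of these, 48 families had at least 3 entries and together held 2603. An entry is a stretch of a repeat consensus, and it pools the genomic copies that align over that stretch, so it has no single place in the genome and the number of copies behind it is not given in the files. Of the 2614 entries, 86 had names with -I_ such as ERVB5_1-I_MM, which mark internal sequence under another naming. The 86 make up most entries of the families ERVB2, ERVB4 and ERVB5. The remaining 2528 are given separately where they matter.

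LTRs flank a retrovirus and hold its promoter, enhancer and polyadenylation sequences, and most survive in the genome as solo copies after recombination has removed the coding part between them. In mouse cells ERVK elements are silenced by repressive histone methylation and by DNA methylation, and copies of some LTR families bind pluripotency factors or act as enhancers in embryonic stem cells. Primordial germ cells (PGCs), the founders of eggs and sperm, lose most of their DNA methylation as they migrate to and settle in the gonad, and IAP elements are known for keeping more of theirs than other sequences.

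The libraries fell into 6 groups of 2, all with the strain label C57BL6. Female embryonic stem cells (ESCs) and parthenogenetic embryonic stem cells (pESCs), which derive from activated oocytes without a paternal genome, came from Actin-GFP mice. E9.5 PGCs and E12.5 PGCs were isolated by surface markers from embryos at day 9.5 and day 12.5. ESC-PGCLCs and pESC-PGCLCs were PGC-like cells made from either stem cell kind by 2 days of epiblast-like induction with bFGF and activin A and 4 days of culture with BMP4, SCF, EGF and LIF, and were sorted for SSEA1 and CD61. The study's methods call the replicates biological, but the sources used here do not say how many lines, cultures or embryos stood behind the libraries, so p-values measure the spread between these libraries. Each library listed between 144375 and 166476 features. The assay, reduced representation bisulfite sequencing (RRBS), cuts DNA with MspI and so favours CpG-rich stretches, and offers no expression markers with which the cell labels could be checked. The deposited fractions carry no read counts, so the depth behind each level is unknown and no counting interval can be given.

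E9.5 PGCs had the highest methylation of these LTRs and the other 5 groups lay well below. The mean level over the 2614 entries was 65.9% and 65.7% in the libraries of E9.5 PGCs. It was 53.6% and 53.7% in ESC-PGCLCs, 49.7% and 49.4% in pESC-PGCLCs and 44.1% and 44.5% in E12.5 PGCs. The stem cells gave 48.2% and 38.2% in ESCs and 43.6% and 41.3% in pESCs. The germ cell groups thus stood in 4 steps that did not overlap, while the ESC libraries lay so far apart that they enclosed pESCs, E12.5 PGCs and no PGCLC library. Group means were 65.8% ± 0.187 (SD, n = 2 in each group) in E9.5 PGCs, 53.6% ± 0.102 in ESC-PGCLCs, 49.5% ± 0.217 in pESC-PGCLCs, 44.3% ± 0.335 in E12.5 PGCs, 42.5% ± 1.64 in pESCs and 43.2% ± 7.04 in ESCs. With 2 libraries against 2 an exact permutation test cannot give a two-sided p below 0.33, so a difference between group means is described by whether the libraries overlapped, and calls come from a model over all features.

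**Figure D1:**
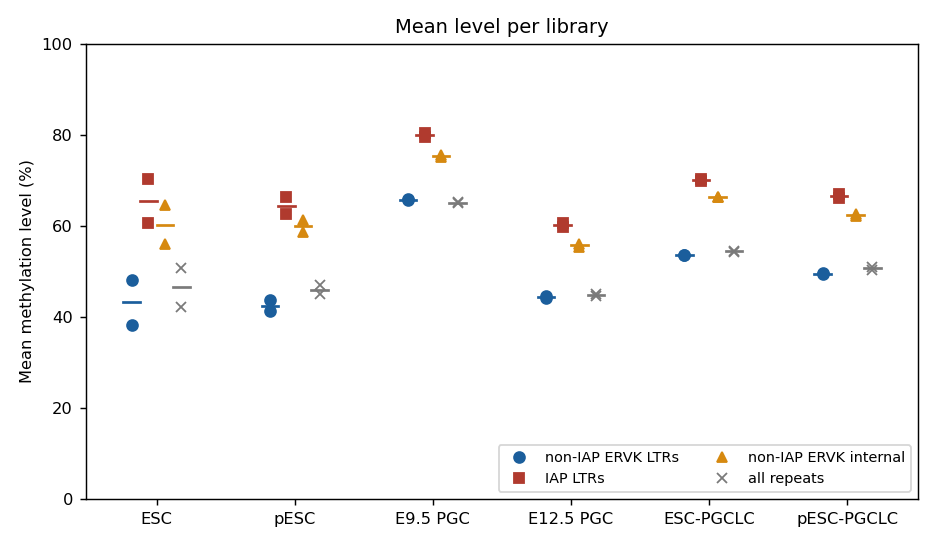
Mean CpG methylation level in percent of the non-IAP ERVK LTR entries, IAP LTR entries, non-IAP ERVK internal entries and all repeat entries, with 1 point per library and the 6 groups along the horizontal axis. The ERVK LTRs lie below the IAP LTRs in every group, are highest in E9.5 PGCs at 65.9% and 65.7%, and differ most between libraries in ESCs at 48.2% and 38.2%.

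Single families were also lower at E12.5 than at E9.5. All 48 families with at least 3 entries were lower in both E12.5 PGC libraries than in both E9.5 PGC libraries. At E9.5 their means ran from 46.7% in RMER12 to 84.4% in RLTR45, and at E12.5 from 32.0% in RMER12 to 59.6% in RLTR46. By group means 47 of the 48 stood in the order E9.5 PGCs, ESC-PGCLCs, pESC-PGCLCs, E12.5 PGCs, the exception being RMER16, while the place of the stem cells varied. A family kept between 61.9% (RLTR19) and 76.0% (RLTR46) of its E9.5 level at E12.5, with a median of 67.3%. The families therefore differed more in where they started than in the share they kept. Neighbours in the order of family means overlapped in 32 of 47 adjacent pairs at E9.5, 38 at E12.5, 40 in pESC-PGCLCs, 35 in ESC-PGCLCs, 44 in pESCs and all 47 in ESCs, so ranks of nearby families are not resolved.

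The largest family was RMER17, a rodent LTR family with 496 entries. Its mean levels were 63.7% and 63.5% in E9.5 PGCs, 51.9% and 51.5% in ESC-PGCLCs, 48.3% and 48.3% in pESC-PGCLCs, 43.2% and 43.6% in E12.5 PGCs, 43.5% and 41.3% in pESCs and 47.8% and 38.7% in ESCs. RLTR20 followed with 322 entries, which lay lower, at 58.6% and 58.5% in E9.5 PGCs, 46.9% and 46.7% in ESC-PGCLCs, 43.6% and 42.7% in pESC-PGCLCs, 36.8% and 37.9% in E12.5 PGCs, 39.2% and 35.9% in pESCs and 43.4% and 33.3% in ESCs. RMER13 had 306 entries, with levels of 66.01% and 66.1% in E9.5 PGCs, 53.5% and 53.2% in ESC-PGCLCs, 49.4% and 49.2% in pESC-PGCLCs, 44.3% and 44.3% in E12.5 PGCs, 43.5% and 41.5% in pESCs and 48.5% and 38.7% in ESCs. In each of the 3 families both PGCLC groups lay between E9.5 PGCs and E12.5 PGCs without overlap. RLTR10, which includes the LTR of the MMERVK10C retrovirus, was among the more methylated, and its 116 entries gave 81.2% and 80.9% in E9.5 PGCs, 68.1% and 68.6% in ESC-PGCLCs, 63.3% and 62.4% in pESC-PGCLCs, 57.3% and 58.1% in E12.5 PGCs, 57.2% and 53.9% in pESCs and 63.4% and 49.5% in ESCs.

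**Figure D2:**
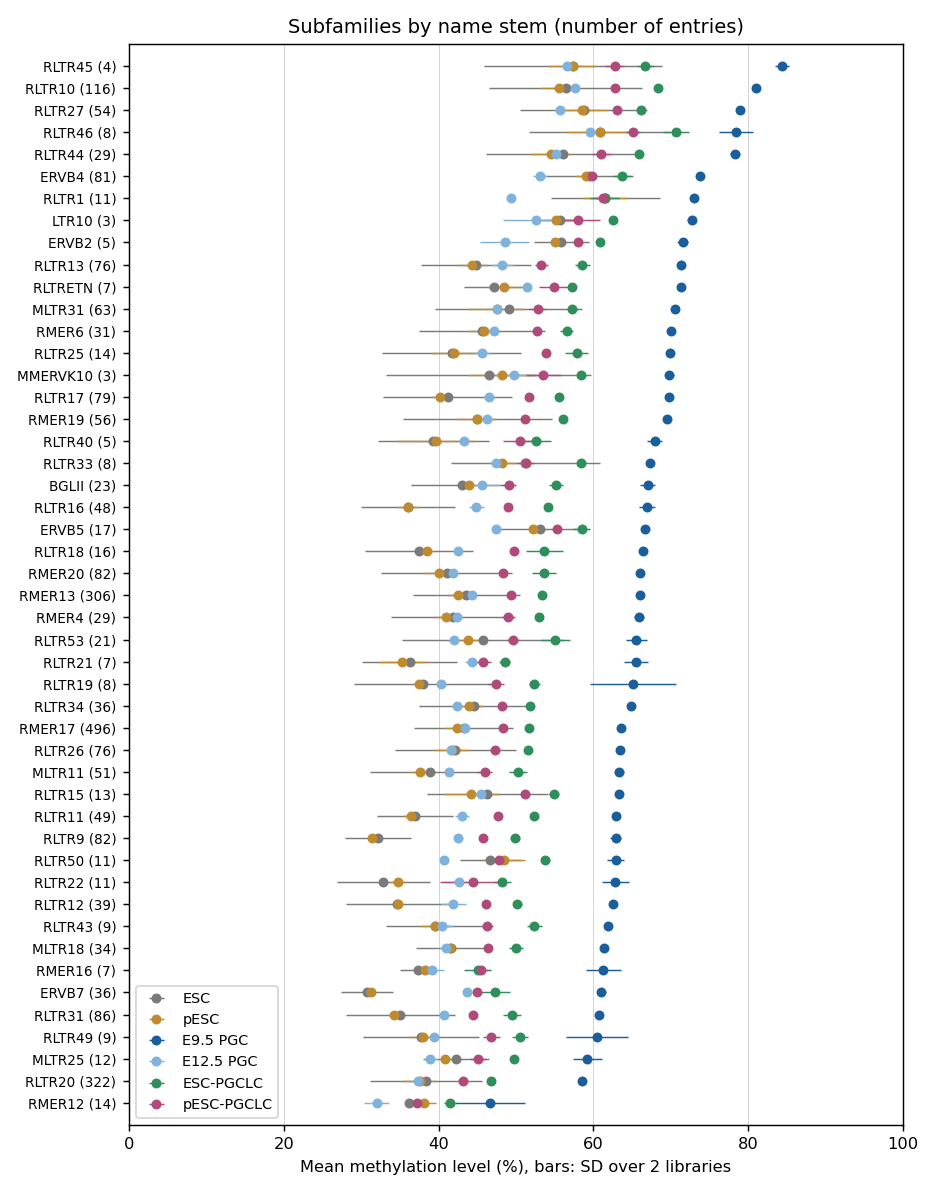
Mean CpG methylation level in percent (horizontal) of the 48 families with at least 3 entries, ordered by their E9.5 level (vertical, number of entries in parentheses), in each of the 6 groups, with points for means of 2 libraries and bars for their SD. E9.5 PGCs are highest in each family, from 46.7% in RMER12 to 84.4% in RLTR45, and ESCs have the widest bars.

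The comparison of E12.5 PGCs with E9.5 PGCs asked how far these LTRs lost methylation between migration and the gonad. Of the 2614 entries, 2214 fell and 1 rose, where a call needs an adjusted p under 0.05 in limma on the log odds of methylation and a difference of at least 10 percentage points. That is 84.7% of entries, against 49.6% of all features tested and 84.9 percent of all repeat entries, so the share called was near that of repeats as a whole. The median difference was -21.8 points, beside -11.5 over all features and -19.5 over all repeats. Without regard to the model, 2455 entries (93.9%) were lower in both E12.5 libraries than in both E9.5 libraries, beside 68.7% of all features. The library medians over all features tested differed by -1.12 in log2 odds, or -16.0 points, against -11.5 points for the median feature difference. Once the libraries were centred on their medians, 612 entries were called lower and 79 higher. The 2528 entries without -I_ names gave 2142 lower and 1 higher.

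The largest losses left entries at E12.5 near or below the levels in stem cells. RLTR18B over consensus positions 1 to 508 had 78.1% and 78.9% in E9.5 PGCs, 54.5% and 53.9% in ESC-PGCLCs, 40.8% and 43.6% in pESC-PGCLCs, 17.2% and 15.01% in E12.5 PGCs, 15.8% and 18.9% in pESCs and 22.7% and 11.6% in ESCs. The E12.5 libraries thus lay inside the range of the stem cells and the PGCLCs between them and E9.5 PGCs. Its difference between E12.5 and E9.5 was -62.4 points (log odds change -4.13 ± 0.12 (log2, SE), limma adjusted p = 7.47e-05). RLTR20A4 at 435 to 504 had 90.2% and 80.2% in E9.5 PGCs and 34.04% and 27.03% in E12.5 PGCs (log odds change -3.68 ± 0.38 (log2, SE), limma adjusted p = 3.03e-04). RMER17A at 356 to 468 kept the smallest share of its level, 11.6%, with 36.3% and 34.4% in E9.5 PGCs and 2.63% and 5.56% in E12.5 PGCs (log odds change -3.46 ± 0.31 (log2, SE), limma adjusted p = 1.76e-04). RMER17D2 at 599 to 809 had 63.1% and 61.1% in E9.5 PGCs and 15.4% and 10.9% in E12.5 PGCs (log odds change -3.35 ± 0.24 (log2, SE), limma adjusted p = 9.83e-05). These 4 calls held in all 10 other fits of the data. RLTR31D_MM at 94 to 181, with 31.4% and 18.8% in E9.5 PGCs and 5.26% and 4.44% in E12.5 PGCs, was also called, and RLTR20A4 at 423 to 500, with 71.4% and 82.4% in E9.5 PGCs and 0% and 21.7% in E12.5 PGCs, lost its call without either E9.5 library.

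Entries that kept their level were few. Among the 2501 entries with an E9.5 mean of at least 20%, the share kept at E12.5 had a median of 67.9%, 18 entries were above 100% and 136 were below 50%. The 5 entries with the highest share kept were not called, and in 4 of them the E9.5 libraries disagreed widely: MLTR11B at 18 to 478 had 60% and 10% in E9.5 PGCs and 41.7% and 52.2% in E12.5 PGCs. RMER17C at 16 to 439 had closer replicates, 21.6% and 25% in E9.5 PGCs and 35.5% and 30.97% in E12.5 PGCs, and stopped just short of the 10-point limit at 9.95 points. The only entry called higher at E12.5, RMER19A at 3 to 118, had 1.31% and 2.17% in E9.5 PGCs, 11.3% and 15.6% in ESC-PGCLCs, 13.1% and 11.2% in pESC-PGCLCs, 17.98% and 9.77% in E12.5 PGCs, 33.3% and 28.6% in pESCs and 37.9% and 25.9% in ESCs. It was highest in the stem cells and lowest in E9.5 PGCs. Its difference at E12.5 was 12.1 points (log odds change 2.59 ± 0.36 (log2, SE), limma adjusted p = 0.00102), and without replicate 1 of the E12.5 PGCs it was 8.03 points and not called.

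Above a level of 20% at E9.5, the share of methylation kept at E12.5 was similar from class to class. Entries at 80% or more at E9.5 averaged 86.6% there and 58.3% at E12.5, and thus kept 67.3% of their level. Those between 60% and 80% kept 66.8%, those between 40% and 60% kept 68.1%, and those between 20% and 40% kept 69.6%. The 113 entries under 20% at E9.5 averaged 7.32% there and 6.57% at E12.5, and so kept 89.8%. In points the difference was therefore largest where the level was highest, at 28.3 points in the top class against 9.81 points in the class from 20% to 40%. The classes were formed on E9.5 levels that also enter the difference, so these values are a description.

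**Figure D3:**
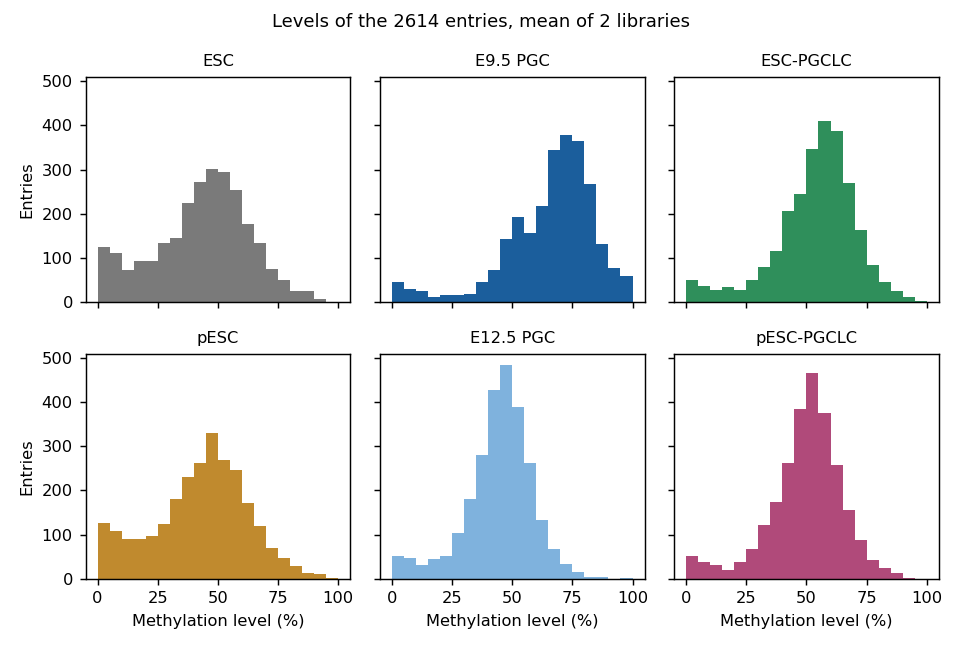
Number of non-IAP ERVK LTR entries by CpG methylation level in 5-point bins, mean of 2 libraries, in a panel for each of the 6 groups. In E9.5 PGCs 1842 entries lie at 60% or more, whereas in E12.5 PGCs 256 do, and the bins under 20% hold 402 entries in ESCs and 113 in E9.5 PGCs.

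The spread of entries differed between the groups. In E9.5 PGCs the median entry was at 69.6%, with quartiles of 55.8% and 78.1%. In E12.5 PGCs the median was 46.0% and the quartiles 37.7% and 52.9%, and the SD over entries was 14.2 points against 19.1 at E9.5. ESCs had nearly the same median as E12.5 PGCs, 45.7%, but quartiles of 31.0% and 56.9%. Accordingly 402 entries were under 20% in ESCs and 415 in pESCs, against 148 in ESC-PGCLCs, 141 in pESC-PGCLCs and 176 in E12.5 PGCs. Element names accounted for 18.3% to 22.4% of the variance over entries, so most of the variation lay between entries of the same name.

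Both PGCLC kinds were compared with embryonic PGCs to place them between the stages. Against E9.5 PGCs, 1461 entries were lower and 5 higher in ESC-PGCLCs, or 56.1% of entries, beside 29.8 percent of all features and 41.4 percent of repeats. In pESC-PGCLCs 1930 were lower and 1 higher, or 73.9%, beside 40.3 percent of all features and 62.7 percent of repeats. The median differences were -11.99 and -16.1 points. Here the share called exceeded that of the other ERVK sequences. In ESC-PGCLCs 42.3% of IAP LTR entries and 36.1% of internal entries were called, and in pESC-PGCLCs 68.8% and 61.3%. This did not hold for E12.5 PGCs against E9.5 PGCs, where 87.3% and 85.2% were called beside 84.7% of these LTRs. No test was made of these differences. After centring, 243 lower and 59 higher calls were left in ESC-PGCLCs, and 461 lower and 50 higher in pESC-PGCLCs. Both comparisons share the E9.5 libraries.

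Against E12.5 PGCs, 981 entries were higher and 23 lower in ESC-PGCLCs, or 38.4%, beside 22.8 percent of all features and 39.7 percent of repeats. In pESC-PGCLCs 297 were higher and 16 lower, or 12%, beside 7.1 percent of all features and 12.5 percent of repeats. These shares were near those of repeats in general. The pESC-PGCLC count rested on the libraries in the fit. It was 0 and 5 without replicate 1 and replicate 2 of the pESC-PGCLCs, 16 and 48 without replicate 1 and replicate 2 of the E12.5 PGCs, and 17 when all 12 libraries shared a fit, which also brought the ESC-PGCLC count to 381. After centring, 191 higher and 56 lower calls were left in ESC-PGCLCs, and 12 higher and 11 lower in pESC-PGCLCs. By family, all 48 had higher levels in both ESC-PGCLC libraries than in both E12.5 PGC libraries, by 3.59 (ERVB7) to 13.1 points (RLTR53). In pESC-PGCLCs 47 did so, with RLTR22 overlapping. Of single entries 75.9% and 59.8% were higher without overlap in ESC-PGCLCs and pESC-PGCLCs, beside 56.6% and 47.9% of all features.

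**Figure D4:**
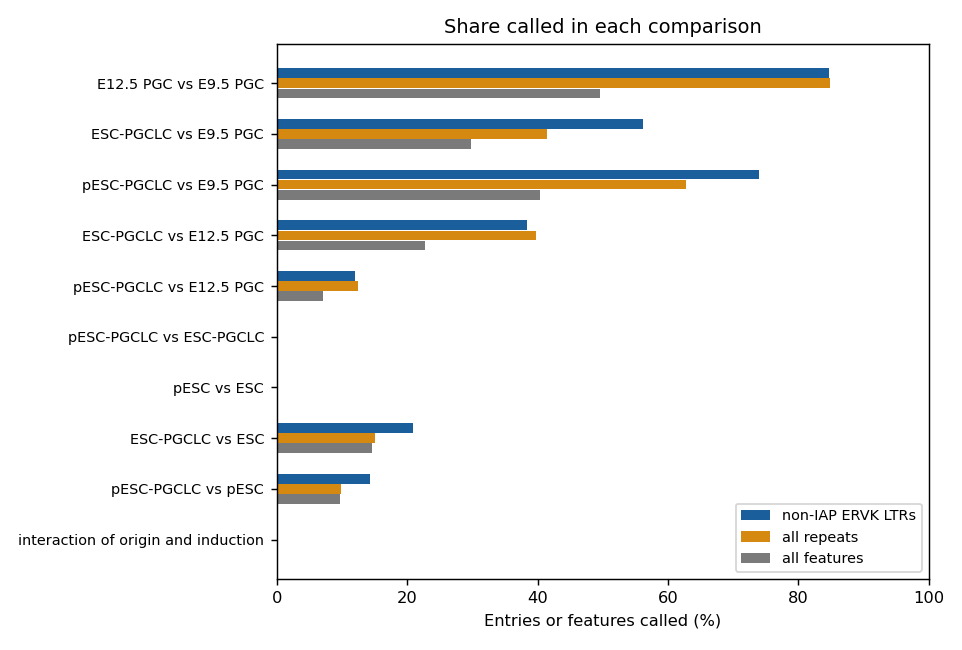
Percent of non-IAP ERVK LTR entries, all features and all repeat entries called in each comparison (limma adjusted p under 0.05 and at least 10 points). The ERVK LTR bar reaches 84.7% for E12.5 PGCs against E9.5 PGCs and is 0 or near 0 for pESCs against ESCs and for the PGCLC kinds against each other.

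Some entries departed from the general order. RLTR26C_MM at 473 to 667 had 76.99% and 81.8% in E9.5 PGCs, 18.3% and 14.8% in ESC-PGCLCs, 20% and 15.2% in pESC-PGCLCs, 52.8% and 52.4% in E12.5 PGCs, 10.8% and 16.1% in pESCs and 15.3% and 15.2% in ESCs, so both PGCLC kinds lay with the stem cells and below both PGC stages. Its difference from E9.5 PGCs was -62.9 points in ESC-PGCLCs (log odds change -4.18 ± 0.22 (log2, SE), limma adjusted p = 7.25e-04) and -61.8 points in pESC-PGCLCs (log odds change -4.08 ± 0.22 (log2, SE), limma adjusted p = 2.58e-04). Another stretch of the same element did the opposite. RLTR26C_MM at 5 to 156 had 69.9% and 70.4% in E9.5 PGCs, 72.2% and 88.9% in ESC-PGCLCs, 44.01% and 45.96% in pESC-PGCLCs, 31.6% and 35.4% in E12.5 PGCs, 3.32% and 9.37% in pESCs and 2.91% and 5.25% in ESCs, so ESC-PGCLCs exceeded E12.5 PGCs by 47.1 points (log odds change 3.09 ± 0.46 (log2, SE), limma adjusted p = 0.00545). RLTR17B_Mm at 291 to 403, of a family whose copies are known to bind pluripotency factors, had 50.4% and 45.9% in E9.5 PGCs, 72.4% and 62.5% in ESC-PGCLCs, 32.1% and 25.4% in pESC-PGCLCs, 18.8% and 24.4% in E12.5 PGCs, 3.04% and 10.8% in pESCs and 6.51% and 10.8% in ESCs. ESC-PGCLCs were above E12.5 PGCs there by 45.8 points (log odds change 2.86 ± 0.29 (log2, SE), limma adjusted p = 0.00281), and above E9.5 PGCs by 19.3 points, a call that was lost in 4 of 10 other fits.

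RLTR20A4 at 396 to 471 was fully methylated in E9.5 PGCs, with 100% and 100% in E9.5 PGCs, 48.3% and 42.9% in ESC-PGCLCs, 37.9% and 35.3% in pESC-PGCLCs, 63.6% and 61.5% in E12.5 PGCs, 21.4% and 25% in pESCs and 30% and 16.2% in ESCs. It was lower by the model in ESC-PGCLCs (log odds change -6.91 ± 0.14 (log2, SE), limma adjusted p = 2.02e-04) and pESC-PGCLCs (log odds change -7.43 ± 0.14 (log2, SE), limma adjusted p = 2.58e-04), and both lay below E12.5 PGCs. ERVB5_1-I_MM at 6342 to 6400, an internal stretch, had 52.5% and 53.9% in E9.5 PGCs, 69.1% and 77.9% in ESC-PGCLCs, 60.2% and 65.9% in pESC-PGCLCs, 47.5% and 51.7% in E12.5 PGCs, 92.2% and 87.8% in pESCs and 94.04% and 85.6% in ESCs. Its level was thus highest in the stem cells, and ESC-PGCLCs were above E9.5 PGCs by 20.3 points (log odds change 1.27 ± 0.24 (log2, SE), limma adjusted p = 0.00707). ERVB4_1B-I_MM at 599 to 1063, also internal, was at 33.3% and 36.2% in E12.5 PGCs, 22.4% and 32.6% in pESC-PGCLCs and 0% and 4.76% in ESC-PGCLCs (log odds change -4.47 ± 0.80 (log2, SE), limma adjusted p = 0.00894 for ESC-PGCLCs against E12.5 PGCs). Among the entries highest in pESC-PGCLCs relative to E12.5 PGCs, RLTR10A at 1 to 393 had 28.6% and 36.5% in E12.5 PGCs, 69.4% and 73.9% in pESC-PGCLCs and 74.4% and 72.7% in ESC-PGCLCs, and its call was lost in 3 of 4 fits that left out a library.

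Between the PGCLC kinds the difference was small and went the same way in most entries. The mean over entries in pESC-PGCLCs differed from that in ESC-PGCLCs by -4.09 points, without overlap of the libraries. The difference was -3.72 points over all repeats, -3.60 in IAP LTRs and -3.79 in ERVK internal entries, also without overlap. By family, 45 of 48 were lower in both pESC-PGCLC libraries, with RLTR1, RLTR40 and RMER16 overlapping. Of single entries 56.8% were lower without overlap, beside 42.2% of all features. An unadjusted p under 0.05 in limma was reached by 750 entries, beside 26558 of 137202 features and 9269 of 37202 repeats. The model called 1 entry of 2614, or 0.0383%, beside 0.0948 percent of all features and 0.134 percent of repeats. This entry was RLTR9E at 10 to 409, with 63.4% and 61.6% in E9.5 PGCs, 64.1% and 65.7% in ESC-PGCLCs, 40.4% and 42.03% in pESC-PGCLCs, 48.8% and 46.6% in E12.5 PGCs, 3.31% and 4.58% in pESCs and 4.40% and 9.36% in ESCs, so that ESC-PGCLCs stood at the E9.5 level and pESC-PGCLCs below E12.5 PGCs. Its difference was -23.7 points (log odds change -1.37 ± 0.11 (log2, SE), limma adjusted p = 0.0310), and the call was lost without replicate 1 or 2 of the pESC-PGCLCs or replicate 2 of the ESC-PGCLCs. The count itself was 54 with an offset of 0.1 in the log odds, 70 on untransformed levels and 0 after centring. Leaving out a single library gave 0 to 15 calls.

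No entry was called between pESCs and ESCs, where 0 percent of all features and of repeats were called. An unadjusted p under 0.05 in limma was reached by 31 entries, beside 2054 of 148012 features and 623 of 43277 repeats. The mean difference was -0.690 points with overlapping libraries (exact permutation test, two-sided p = 1), and it was 0.468 without replicate 2 of the pESCs and 4.29 without replicate 1 of the ESCs. In ESCs the libraries differed by 10 points or more in 55.7% of entries, with a median distance of 11.1 points, against a median distance of 1.83 to 4.60 points in the other groups. Leaving out replicate 1 of the pESCs gave 14 calls and leaving out replicate 2 gave 1. The lowest pESC level relative to ESCs was at RLTR9A3, 1 to 305, with 41.6% and 42.9% in ESCs and 7.65% and 17.5% in pESCs. This entry was not called (limma adjusted p = 1).

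PGCLCs were compared with stem cells of the same origin to see which LTRs differed after induction. Epiblast-like cells were not among the 12 libraries. In ESC-PGCLCs 526 entries rose and 21 fell against ESCs, or 20.9%, beside 14.6 percent of all features and 15 percent of repeats. In pESC-PGCLCs 355 rose and 19 fell against pESCs, or 14.3%, beside 9.66 percent of all features and 9.79 percent of repeats. Counted upwards alone, 13.7 percent of all features and 14.2 percent of repeats rose in the first comparison and 8.91 percent and 9.21 percent in the second. The median differences were 7.67 and 4.59 points, beside 1.26 and 0.57 points over all features. The mean over entries was higher by 10.4 points in ESC-PGCLCs and 7.04 points in pESC-PGCLCs, each without overlap. The first of these was 15.4 points without replicate 1 of the ESCs and 5.46 without replicate 2. The library medians over all features tested were 12.9% in ESCs and 25.7% in ESC-PGCLCs, a difference of 1.17 in log2 odds. They were 13.9% in pESCs and 23.9% in pESC-PGCLCs, a difference of 0.92 in log2 odds. In points both exceeded the median feature differences of 1.26 and 0.57, which these LTRs surpassed. Only relative to the library medians, and not to the median feature, did the direction of most calls turn. After centring, 229 entries were higher and 661 lower in ESC-PGCLCs, and 209 were higher and 641 lower in pESC-PGCLCs. The ESC count was 320 and 297 without replicate 1 and replicate 2 of the ESC-PGCLCs and 1155 without replicate 1 of the ESCs. The pESC count was 183 and 195 without replicate 1 and replicate 2 of the pESC-PGCLCs and 217 without replicate 1 of the pESCs.

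The entries with the largest called gains were low in stem cells. A rise of that size can only start from a low level, so this follows from how they were picked. RLTR16C_MM at 145 to 627 had 83.1% and 81.8% in E9.5 PGCs, 78.01% and 87.9% in ESC-PGCLCs, 83.9% and 74.9% in pESC-PGCLCs, 67.8% and 71.6% in E12.5 PGCs, 4.32% and 5.95% in pESCs and 4.17% and 6.86% in ESCs. It was thus low in all 4 stem cell libraries and high in all 8 germ cell libraries. Its difference was 77.4 points in ESC-PGCLCs (log odds change 6.18 ± 0.43 (log2, SE), limma adjusted p = 1.43e-04) and 74.3 points in pESC-PGCLCs (log odds change 5.90 ± 0.43 (log2, SE), limma adjusted p = 2.54e-04). RLTR22_Mur at 2 to 56 had 81.8% and 88.3% in E9.5 PGCs, 77.3% and 79.9% in ESC-PGCLCs, 69.8% and 67.6% in pESC-PGCLCs, 58.9% and 59.7% in E12.5 PGCs, 0% and 0% in pESCs and 1.54% and 6.06% in ESCs, and was called in both inductions (log odds change 6.35 ± 0.45 (log2, SE), limma adjusted p = 1.52e-04 for ESC-PGCLCs and log odds change 7.77 ± 0.45 (log2, SE), limma adjusted p = 1.68e-04 for pESC-PGCLCs). RLTR20A4 at 392 to 492 had 90.9% and 90.7% in E9.5 PGCs, 73.3% and 64.2% in ESC-PGCLCs, 70.1% and 62.3% in pESC-PGCLCs, 67.95% and 63.1% in E12.5 PGCs, 2.97% and 4.58% in pESCs and 14.1% and 2.47% in ESCs. The order of the groups was the same there, with a call in pESC-PGCLCs against pESCs (log odds change 5.33 ± 0.68 (log2, SE), limma adjusted p = 0.00225). RLTR26C_MM at 5 to 156, whose levels are given above, rose by 76.5 points in ESC-PGCLCs (log odds change 6.41 ± 0.60 (log2, SE), limma adjusted p = 4.26e-04).

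Among the entries that fell most on induction, some were listed at or near 0 in PGCLCs. RMER13A at 2 to 847 had 0% and 0% in E9.5 PGCs, 0% and 0% in ESC-PGCLCs, 11.1% and 7.69% in pESC-PGCLCs, 50% and 0% in E12.5 PGCs, 44.3% and 35.8% in pESCs and 37.1% and 38.9% in ESCs. A single E12.5 PGC library thus stood apart from the other. Its change was called in ESC-PGCLCs (log odds change -5.97 ± 0.27 (log2, SE), limma adjusted p = 7.45e-05) and in pESC-PGCLCs (log odds change -2.58 ± 0.27 (log2, SE), limma adjusted p = 9.00e-04). RLTR20C1_MM at 418 to 478 had 0% and 0% in ESC-PGCLCs, 69.1% and 24% in ESCs, 0% and 0% in pESC-PGCLCs and 40.7% and 41.9% in pESCs, so all 4 PGCLC libraries were listed at 0. RMER17B2 at 1 to 938 had 66.7% and 61.98% in pESCs and 27.4% and 35.9% in pESC-PGCLCs, and its call was lost in each of the 4 fits that left out a library. RLTR27 at 222 to 268 had 8.33% and 0% in ESC-PGCLCs, 37.5% and 48.6% in ESCs, 35.4% and 51.02% in pESC-PGCLCs and 38.5% and 41.7% in pESCs, and it was called lower in ESC-PGCLCs, a call lost without replicate 2 of the ESCs.

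By family, ESC-PGCLCs were higher than ESCs without overlap in 46 of 48, with ERVB4 and RLTR1 overlapping. In pESC-PGCLCs 43 families were higher than in pESCs, with ERVB4, LTR10, RLTR1, RLTR50 and RMER12 overlapping. ERVB4 consists mostly of entries with -I_ names, and the 86 such entries overlapped in both inductions, at 4.22 and 0.61 points. Of single entries 50.3% and 49.7% were higher without overlap, beside 43.8% and 41.5% of all features. RLTR16 had the largest difference in ESC-PGCLCs, 18.1 points, and RLTR9 in pESC-PGCLCs, 14.3 points. RLTR9 copies are known as binding sites of pluripotency factors in embryonic stem cells, and the family's 82 entries had levels of 63.4% and 62.4% in E9.5 PGCs, 50.4% and 49.4% in ESC-PGCLCs, 45.8% and 45.5% in pESC-PGCLCs, 42.2% and 42.98% in E12.5 PGCs, 31.4% and 31.3% in pESCs and 35.2% and 29.1% in ESCs. Of these entries 38 (46.3%) rose in ESC-PGCLCs and 33 (40.2%) did so in pESC-PGCLCs. For the difference between inductions, 86 entries had an unadjusted p under 0.05 in limma, beside 4053 of 136848 features and 1139 of 36654 repeats. That difference was not called at any entry (0 of 2614), beside 0.0365 percent of all features and 0.0327 percent of repeats. Leaving out a single library gave 0 to 10 such calls. In the mean it was -3.40 points, and it was 1.58 points without replicate 2 of the ESCs.

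A subset of entries was low in stem cells yet high in E9.5 PGCs, a group set apart after its values were seen and therefore given with no test. Its contrast between stem cells and E9.5 PGCs is set by the cutoffs used to pick it. Of the 2614 entries, 370 were under 20% in both ESCs and pESCs, and 137 of these were at 60% or more at E9.5. The 137 are 5.24% of the 2614 entries. The 137 averaged 73.8% in E9.5 PGCs, 54.1% in ESC-PGCLCs, 46.1% in pESC-PGCLCs and 46.9% in E12.5 PGCs, against 9.63% in ESCs and 9.07% in pESCs. The same pattern was seen in 2 of 189 IAP LTR entries (1.06%), 17 of 715 internal entries (2.38%), 3.66% of all repeat entries and 2.84% of all features. Among entries low in both stem cell kinds, the share that was high at E9.5 was 37.0% for these LTRs and 36.5% for all repeats. RMER13 contributed 22 of the 137, RMER17 17, RLTR20 15, RLTR31 11, RLTR9 10, RLTR17 9 and RLTR16 7. As a share of a family's own entries RLTR16 led these with 14.6%, followed by RLTR31 with 12.8%, RLTR9 with 12.2% and RLTR17 with 11.4%, against 3.43% in RMER17.

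Single element names drew the same picture in more detail. All 120 names with at least 5 entries had a lower mean in each of the other 5 groups than in E9.5 PGCs. The distance between E9.5 PGCs and pESCs ran from 2.17 points in RMER12C to 53.3 points in RLTR13D6. RLTR13D6, known for pluripotency factor binding in embryonic stem cells, had 6 entries with mean levels of 83.9% and 79.5% in E9.5 PGCs, 53.7% and 51.3% in ESC-PGCLCs, 48.4% and 49.1% in pESC-PGCLCs, 45.7% and 51.4% in E12.5 PGCs, 30.5% and 26.3% in pESCs and 39.9% and 19.9% in ESCs. RLTR9E, with 26 entries, had 63.3% and 62.7% in E9.5 PGCs, 49.1% and 48.5% in ESC-PGCLCs, 44.7% and 43.5% in pESC-PGCLCs, 43.5% and 43.8% in E12.5 PGCs, 27.1% and 28.7% in pESCs and 30.1% and 26.4% in ESCs. In both elements the E12.5 PGCs stayed above all stem cell libraries. RLTR13D5, described as an enhancer source in trophoblast, did not show this: its 8 entries gave 66.2% and 68.2% in E9.5 PGCs, 57.3% and 58.8% in ESC-PGCLCs, 52.7% and 53.2% in pESC-PGCLCs, 45.6% and 49.3% in E12.5 PGCs, 45.2% and 45.9% in pESCs and 52.2% and 42.9% in ESCs.

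**Figure D5:**
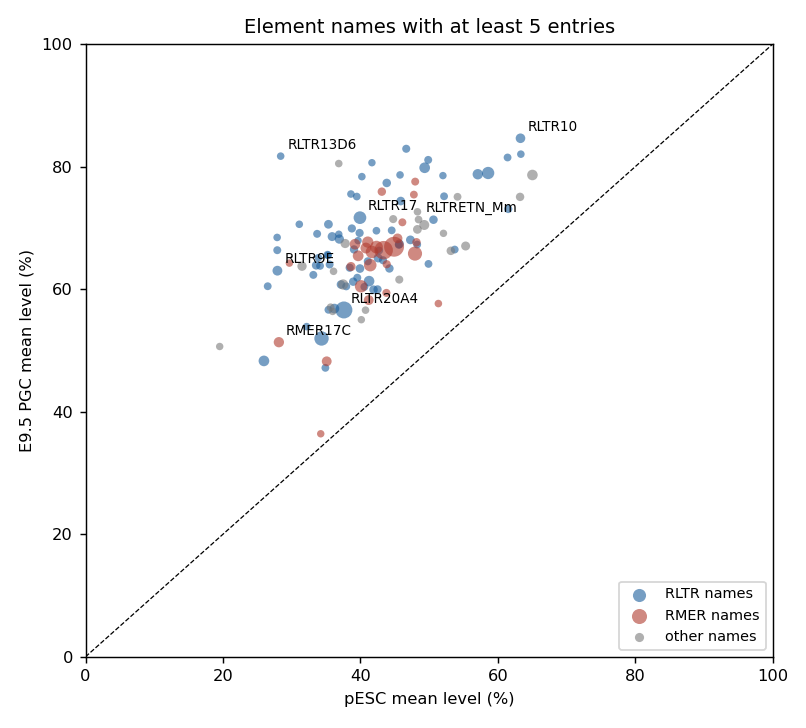
Mean CpG methylation level in percent of each element name with at least 5 entries in pESCs (horizontal) and in E9.5 PGCs (vertical), mean of 2 libraries, with RLTR names in blue, RMER names in red and others in grey, marker size growing with the number of entries, and the line marking equal levels. All 120 names lie above the line, and RLTR13D6 is farthest from it at 53.3 points.

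The next 4 elements of the fixed list lay above the mean over all entries at E9.5. RLTRETN_Mm, the LTR of the early transposon ETn, had 7 entries with levels of 71.6% and 71.1% in E9.5 PGCs, 57.2% and 57.3% in ESC-PGCLCs, 56.4% and 53.6% in pESC-PGCLCs, 51.1% and 51.8% in E12.5 PGCs, 46.9% and 49.99% in pESCs and 50.00% and 44.4% in ESCs. RLTR10C, the LTR of MMERVK10C, had 32 entries with 79.2% and 78.3% in E9.5 PGCs, 68.5% and 67.9% in ESC-PGCLCs, 63.8% and 64.1% in pESC-PGCLCs, 58.1% and 58.3% in E12.5 PGCs, 58.2% and 56.00% in pESCs and 63.3% and 51.9% in ESCs. RLTR10 itself had 24 entries with 84.2% and 84.98% in E9.5 PGCs, 72.3% and 72.4% in ESC-PGCLCs, 67.3% and 66.5% in pESC-PGCLCs, 62.7% and 63.9% in E12.5 PGCs, 66.3% and 60.3% in pESCs and 71.9% and 58.7% in ESCs. RLTR17, with 59 entries, gave 71.8% and 71.5% in E9.5 PGCs, 56.6% and 57.4% in ESC-PGCLCs, 53.1% and 52.2% in pESC-PGCLCs, 47.6% and 47.8% in E12.5 PGCs, 40.8% and 39.02% in pESCs and 47.8% and 33.7% in ESCs. In these 4 elements both PGCLC groups lay between the PGC stages.

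RMER elements, a group of rodent repeat names, and 2 further elements followed the same order in germ cells. RMER19A, with 10 entries, had 58.3% and 60.5% in E9.5 PGCs, 47.3% and 47.6% in ESC-PGCLCs, 45.4% and 43.3% in pESC-PGCLCs and 39.1% and 38.9% in E12.5 PGCs. RMER19B, with 25 entries, had 68.2% and 68.4% in E9.5 PGCs, 54.3% and 54.7% in ESC-PGCLCs, 49.9% and 50.03% in pESC-PGCLCs and 45.4% and 45.8% in E12.5 PGCs. RMER6A, with 13 entries, had 68.3% and 67.04% in E9.5 PGCs, 55.1% and 55.96% in ESC-PGCLCs, 52.1% and 51.8% in pESC-PGCLCs and 45.1% and 47.8% in E12.5 PGCs. RMER4A, with 9 entries, had 70.8% and 71.04% in E9.5 PGCs, 56.8% and 59.1% in ESC-PGCLCs, 55.4% and 53.8% in pESC-PGCLCs and 49.8% and 48.3% in E12.5 PGCs, the highest of these RMER elements at E9.5. RMER17A, with 55 entries, had 61.03% and 59.9% in E9.5 PGCs, 50.4% and 48.9% in ESC-PGCLCs, 45.3% and 44.4% in pESC-PGCLCs and 41.1% and 40.7% in E12.5 PGCs, and RMER13A, with 57, had 63.3% and 64.5% in E9.5 PGCs, 51.5% and 51.7% in ESC-PGCLCs, 47.5% and 47.99% in pESC-PGCLCs and 43.5% and 43.3% in E12.5 PGCs. BGLII, with 6 entries, had 71.9% and 73.4% in E9.5 PGCs, 58.1% and 62.8% in ESC-PGCLCs, 55.4% and 54.7% in pESC-PGCLCs and 53.3% and 50.6% in E12.5 PGCs. RLTR45, the only name of the family with the highest E9.5 mean, had 4 entries with 83.8% and 85.01% in E9.5 PGCs, 67.5% and 65.99% in ESC-PGCLCs, 63.6% and 61.9% in pESC-PGCLCs and 57.04% and 56.1% in E12.5 PGCs. In all 8 elements the order was E9.5 PGCs, ESC-PGCLCs, pESC-PGCLCs and E12.5 PGCs by group mean.

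Names in RLTR and RMER were near each other throughout. The 1250 RLTR entries averaged 66.1% at E9.5, 44.2% at E12.5, 42.2% in ESCs, 41.6% in pESCs, 49.6% in pESC-PGCLCs and 53.9% in ESC-PGCLCs. The 1021 RMER entries averaged 64.9%, 43.6%, 43.2%, 42.4%, 48.7% and 52.6% in the same order. RMER was therefore above RLTR in the stem cells by 0.949 points in ESCs and 0.767 in pESCs and below it in the germ cells, with a difference of -1.30 points in ESC-PGCLCs. The length of the consensus stretch had a small relation to the level: the 614 entries of up to 200 bases averaged 61.8% at E9.5 and the 1095 over 500 bases 66.8%.

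IAP LTRs, the best known ERVK elements resisting demethylation, served as a reference with 189 entries. Of these, 162 were left without names ending in _I, another mark of internal sequence. All 189 entries averaged 80.02% in E9.5 PGCs, 70.1% in ESC-PGCLCs, 66.5% in pESC-PGCLCs and 60.2% in E12.5 PGCs, with 65.5% in ESCs and 64.5% in pESCs. The distance from the non-IAP LTRs up to them was 22.3 points in ESCs and 22.0 in pESCs, but only 14.2 at E9.5, 15.9 at E12.5, 16.5 in ESC-PGCLCs and 17.01 in pESC-PGCLCs. It was narrower in PGCLCs than in their stem cells, with differences of -5.79 points for ESC origin and -4.98 points for pESC origin, in each case without overlap of the libraries (exact permutation test, two-sided, p = 0.33, the smallest the design allows). The non-IAP LTRs kept a median of 68.0% of their E9.5 level at E12.5, 82.1% in ESC-PGCLCs and 76.0% in pESC-PGCLCs, beside 74.5%, 88.7% and 84.2% for IAP LTRs. All repeats kept 69.9%, 84.6% and 79.1%.

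Internal sequences of non-IAP ERVK elements, with 715 entries, also lay higher. Their distance above the LTRs was 17.1 points in ESCs and 17.5 in pESCs, but 9.60 at E9.5, 11.4 at E12.5, 12.97 in pESC-PGCLCs and 12.7 in ESC-PGCLCs. The sets hold different elements, and where an LTR could be set beside its own internal part the order varied. In the 7 pairs named with -int the internal part averaged -7.60 points relative to the LTR at E9.5, -1.64 at E12.5, -4.32 and -4.19 in the PGCLCs of ESC and pESC origin, -3.98 in ESCs and -3.79 in pESCs. RLTR10 and RLTR10-int were at 84.6% and 78.3% at E9.5, and RLTR18 and RLTR18-int at 69.5% and 48.6%. RMER16 and RMER17C went the other way, with internal parts 6.60 and 6.73 points above the LTR at E9.5. In the 4 ERVB pairs, whose internal part is named with -I_, that part was higher in all 4 in every group but E9.5 PGCs, by a mean of 15.3 points in ESCs and 17.6 in pESCs, and in 2 of 4 at E9.5. Over all 11 pairs the mean difference was -5.90 points at E9.5, 1.21 at E12.5, 3.04 in ESCs, 4.00 in pESCs, -0.770 in pESC-PGCLCs and -1.36 in ESC-PGCLCs.

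The entries with the lowest and highest means over all libraries were as follows. RLTR31D_MM at 98 to 204 was between 0% and 1.24% in all 12 libraries, and RLTR20C2_MM at 361 to 440 and RLTR20C1_MM at 428 to 502 did not exceed 2.13%. At the other end RMER6BA at 317 to 456 had 98.8% and 100% in E9.5 PGCs, 91.7% and 93.3% in ESC-PGCLCs, 87.95% and 91.04% in pESC-PGCLCs, 88% and 81.1% in E12.5 PGCs, 91.8% and 81.1% in pESCs and 89.4% and 89.6% in ESCs, RMER13A1 at 700 to 860 had 96.5% and 99.7% in E9.5 PGCs, 90.4% and 89.3% in ESC-PGCLCs, 94.5% and 91.95% in pESC-PGCLCs, 79.3% and 81.3% in E12.5 PGCs, 92.7% and 85.7% in pESCs and 96.1% and 85.6% in ESCs, and LTR10_RN at 292 to 405 had 87.1% and 97.2% in E9.5 PGCs, 89.7% and 87.5% in ESC-PGCLCs, 83.3% and 92.6% in pESC-PGCLCs, 76.2% and 94.1% in E12.5 PGCs, 98.1% and 91.9% in pESCs and 94.2% and 91.5% in ESCs. The first 2 of these were lower in both E12.5 libraries than in both E9.5 libraries, and in LTR10_RN those groups overlapped.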

How the data were processed

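CpG methylation was measured by RRBS in 12 libraries. Per the submitters' processing notes and the study's methods, reads were aligned with Bismark 0.16.3 and Bowtie2 to mm10. The deposited value of each feature is a fraction, methylated over all CpG calls, which the authors computed per library; coverage and any coverage minimum are not given in the sources used here, and copies in a repeat entry are pooled. Here fractions were printed as percent.

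Entries with a level in all 12 libraries were kept. Levels were tested as log2((level + 0.01)/(1 - level + 0.01)) with limma 3.58.1 (R 4.3.3) over all features: 137202 in a fit of the 8 germ cell and PGCLC libraries, 148012 in a fit of the 4 stem cell libraries and 136848 in a fit of stem cells and PGCLCs. P-values were adjusted by Benjamini-Hochberg over all features of a fit in each of 10 comparisons. An entry was called at an adjusted p under 0.05 and at least 10 points between group means. Set means were compared by exact permutation (scipy 1.17.1). Summaries used Python 3.11.15, numpy 2.4.6, pandas 2.3.3 and matplotlib 3.10.9, and the model was tested on simulated data. Entries of an element share sequence and are not independent.

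Named elements were a fixed list and, per comparison, the 3 largest called differences each way (the largest if none was called), the 5 highest and 5 lowest shares kept and the 3 highest and lowest means, with some names added for the pattern they show. The members and lists were chosen with earlier results of these data known. Alternatives were another offset, untransformed levels, 1 fit of all libraries, centring, repeats only, a replicate block, each library left out and, chosen after seeing the data, exclusion of -I_ names and a mean over element names. Replicate numbers did not mark shared origin in the labels and were not used as pairs.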

Additional observations from a re-analysis of the deposited data

How the results depend on the processing

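Counts of called entries kept their direction and stayed within 1.5 times except as follows. Centring gave 691 calls for E12.5 PGCs against E9.5 PGCs, 302 for ESC-PGCLCs and 511 for pESC-PGCLCs against E9.5 PGCs, 247 and 23 against E12.5 PGCs, 0 between PGCLC kinds, and 890 and 850 for the inductions from ESCs and pESCs. A fit of all 12 libraries gave 381 and 17 calls for ESC-PGCLCs and pESC-PGCLCs against E12.5 PGCs. Between PGCLC kinds, offset 0.1 gave 54, untransformed levels 70 and repeats alone 2. The replicate block gave 208 calls for pESC-PGCLCs against E12.5 PGCs and 0 between PGCLC kinds, and moved no other count by over 1.5 times; the labels do not say that a number marks a shared origin, and deviations of same-numbered libraries correlated by 0.518 between ESCs and pESCs and by 0.183 between E9.5 PGCs and ESC-PGCLCs, with lower values elsewhere. Leaving out single libraries gave 0 to 48 calls for pESC-PGCLCs against E12.5 PGCs, 0 to 15 between PGCLC kinds, 0 to 14 between stem cells, 297 to 1155 for ESC-PGCLCs against ESCs, 183 to 268 for pESC-PGCLCs against pESCs and 0 to 10 for the difference between inductions. The mean difference of pESCs from ESCs then ran from -5.67 to 4.29 points (0.468 without pESC replicate 2, 4.29 without ESC replicate 1), and that between inductions from -8.38 to 1.58. Over entries, the mean share kept was 68.7% at E12.5, 82.9% in ESC-PGCLCs and 76.9% in pESC-PGCLCs, and the median in pESC-PGCLCs ran from 75.6% to 76.0% without single libraries. Without E9.5 replicate 2, uncalled differences turned to -3.19 points in RLTR53_Mm at 309 to 386, -13.1 in MLTR11B at 18 to 478, -16.9 in RLTR13A3 at 111 to 978 and -11.9 in RLTR16 at 8 to 234; without replicate 1 the last 3 were 36.9, 39.1 and 39.7. Of 52 named results, all 52 kept their call at offset 0.1 and over repeats alone, 51 under the block, 50 untransformed, 45 centred and 44 in the fit of all libraries. The cause of these shifts was not tested. Depth is unknown and limits every level.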
